A study of Mus musculus with 8 samples.

Results

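The mouse Toll-like receptor genes measured here are the rows of the deposited expression table with the symbols Tlr1 to Tlr9 and Tlr13, which are 10 of its 55226 genes. The rule takes them by symbol and uses no measured value. RNA was sequenced from BMDMs, macrophages obtained by culturing marrow of hindlimb femurs over 7 days in medium with 10% FBS and MCSF, a macrophage growth factor, at 10 ng/ml. All mice were of the C57BL/6 strain. The groups were PtipcKO cells 6 h after LPS, PtipcKO cells at 0 h, PtipWT cells 6 h after LPS and PtipWT cells at 0 h, with 2 libraries each, and LPS, a bacterial cell wall component, was given at 100 ng/ml. PTIP, the product of Paxip1, is a regulator of histone methylation, and the comparisons address macrophages lacking it, unstimulated and stimulated. The groups are called cKO and WT here. The labels give neither the Cre driver nor the deleted exons nor the age of the mice, and nothing ties a replicate number to an animal, so the p-values cover only how far these libraries scatter, which may be technical.

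Toll-like receptors are membrane proteins that bind microbial molecules through leucine-rich repeats and signal through a cytoplasmic TIR domain. Tlr4 with its partner MD-2 binds LPS. Tlr2 pairs with Tlr1 or Tlr6 to bind bacterial lipoproteins, and Tlr5 binds flagellin. Tlr3, Tlr7, Tlr8, Tlr9 and Tlr13 sit in endosomes, where Tlr3 binds double-stranded RNA, Tlr7 and Tlr8 bind single-stranded RNA, Tlr9 binds unmethylated CpG DNA, and Tlr13, which mice have and humans lack, binds bacterial ribosomal RNA. Macrophages use these receptors to detect microbes and to start cytokine production.

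Values are the authors' rlog, a log2-scale expression value in which weakly read genes are shrunk, and differences on it understate the change of low genes. No read counts were used, so depth is unknown. Testing with limma covered genes whose rlog averaged 3 or more over the 8 libraries, 11543 in all, and a gene was called at a Benjamini-Hochberg adjusted p under 0.05 over all of them. Of the 10 receptor genes, 9 were tested. Tlr5 was not: its rlog lay between -2.17 and -2.14 in all 8 libraries, near the lowest value of the table, -2.31. Tlr11 and Tlr12, also receptors of this family in the mouse, had mean rlog values of 0.90 and 1.23 and were not tested.

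The target gene matched the genotype labels. Paxip1 had an rlog of 2.54 and 2.63 in cKO after LPS, against 3.82 and 4.08 in WT after LPS, and of 2.54 and 2.48 in cKO at 0 h, against 4.50 and 4.50 in WT at 0 h. The difference was -1.36 after LPS (SE 0.18, adjusted p = 0.0156) and -1.99 at 0 h (SE 0.18, adjusted p = 0.00686). The Paxip1 call after LPS was lost without cKO LPS replicate 1 (adjusted p = 0.1003), cKO LPS replicate 2 (0.1502) or WT LPS replicate 1 (0.0642). At 0 h it was lost in a fit of the 0 h libraries alone (adjusted p = 0.0544) and without cKO 0 h replicate 2 (0.0625) or WT 0 h replicate 1 (0.0732), and with 1 library left out the difference stayed between -1.497 and -1.23 after LPS and between -2.02 and -1.96 at 0 h. For Paxip1 the authors' deposited table, whose fold changes are not on the rlog scale, gave log2 fold changes of -4.04 after LPS and -4.75 at 0 h. It called Paxip1 at 0 h and not after LPS. All 8 macrophage markers chosen were tested, and of them Itgam (-1.11) and Mertk (-1.10) were lower in cKO than in WT after LPS. Their summed level, led by Lyz2, was 18.41 to 18.49 in cKO after LPS, against 19.36 to 19.45 in WT after LPS, and 18.37 to 18.69 in cKO at 0 h, against 19.16 to 19.28 in WT at 0 h. Of the markers of other cells, 2 of 10 neutrophil, 4 of 6 dendritic cell, 1 of 6 B cell and 2 of 4 mast cell and basophil genes were tested, and 0 of 6 T and NK cell, 0 of 6 erythroid and 0 of 5 stromal genes: the neutrophil list was led by S100a8 (mean rlog 7.57), the dendritic cell list by Ccr9 (4.16) and the B cell list by Cd79b (4.18), and Ly6g and Flt3 had means of -2.02 and 0.58. The summed neutrophil list reached 8.56 to 8.79 in cKO after LPS, against 7.63 to 8.16 in WT after LPS, and 7.98 to 8.07 in cKO at 0 h, against 6.89 to 7.49 in WT at 0 h. This sum follows mainly S100a8, which like Camp had a higher mean in cKO than in WT at both times. The list did not move as a whole. S100a9, Ngp, Ltf and Mpo, too low to be tested, had lower means in cKO than in WT at both times. Elane was lower in cKO after LPS and higher at 0 h. The summed dendritic cell list spanned 5.99 to 6.21 in cKO after LPS, against 6.19 to 6.31 in WT after LPS, and 5.59 to 5.62 in cKO at 0 h, against 5.41 to 5.75 in WT at 0 h. The part of these markers in the receptor results was not tested. In bulk RNA a smaller share of expressing cells and less RNA per cell cannot be told apart.

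Some of these genes lie side by side in the mouse genome (GRCm38, GENCODE M21, all protein-coding). Tlr1 (chromosome 5, 64924679 to 64933563) and Tlr6 (chromosome 5, 64952031 to 64960097) are 18.5 kb apart on the minus strand. Tlr8 (chromosome X, 167242696 to 167264329) and Tlr7 (chromosome X, 167304929 to 167330558) are 40.6 kb apart on the minus strand. Tlr2 is at 83836272 to 83841767 on chromosome 3, Tlr3 at 45395665 to 45411080 on chromosome 8, Tlr4 at 66827584 to 66930284 on chromosome 4, Tlr5 at 182954788 to 182976044 on chromosome 1, Tlr9 at 106222598 to 106226883 on chromosome 9 and Tlr13 at 106143204 to 106160493 on chromosome X. Paxip1 is also on chromosome 5, 37133 kb from Tlr1.

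Reads can be shared between some members. Of the 3332 stretches of 50 bases in the Tlr1 transcripts, 454 also occur in Tlr6, which has 3702. How the authors counted reads that match several genes is not given in the sources used here, so the values of Tlr1 and Tlr6 are uncertain to that extent. The Tlr3 transcripts share 288 of 5436 such stretches (5.3%) with the antisense gene Gm45542, from which reads cannot be told apart without strand. Tlr2, Tlr5, Tlr7, Tlr8, Tlr9 and Tlr13 share 0 with transcripts of other genes, and Tlr4 shares 12 of 5551.

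Upstream sequences from RefSeq (GRCm38.p6) were found for 8 of the 10 genes, with 10 annotated starts, and not for Tlr4 and Tlr7. Those shown are of Tlr1, Tlr2 and Tlr6, the lipoprotein receptors that LPS raised together in both genotypes, and of Tlr8 and Tlr9, which with Tlr1 were lower in cKO than in WT after LPS. Each is the longest stretch, within 250 bases before a RefSeq start, that no annotated exon covers, written 5′ to 3′ on the gene's strand. Capitals mark matches, on either strand, to 6 motifs: the kappa-B consensus, the PU.1 core GAGGAA, the interferon-response motif (GAAA, any 2 bases, GAAA), the STAT motif TTCNNNGAA, the AP-1 motif TGAGTCA and the C/EBP motif TTGCNNAAT.
Tlr1, chr5:64933564-64933808, minus strand: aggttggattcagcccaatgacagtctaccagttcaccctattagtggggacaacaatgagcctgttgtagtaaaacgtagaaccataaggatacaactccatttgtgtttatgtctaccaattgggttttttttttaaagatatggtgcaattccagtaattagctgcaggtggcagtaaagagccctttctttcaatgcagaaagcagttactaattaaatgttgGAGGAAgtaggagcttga
Tlr2, chr3:83841768-83841858, minus strand: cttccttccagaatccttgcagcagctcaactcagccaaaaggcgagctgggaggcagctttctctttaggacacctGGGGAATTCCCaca
Tlr6, chr5:64959167-64959416, minus strand: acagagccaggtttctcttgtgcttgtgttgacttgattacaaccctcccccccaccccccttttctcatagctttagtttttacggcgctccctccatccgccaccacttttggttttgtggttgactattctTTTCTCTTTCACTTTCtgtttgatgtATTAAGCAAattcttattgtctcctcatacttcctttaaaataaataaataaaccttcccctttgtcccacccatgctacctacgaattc
Tlr8, chrX:167264330-167264579, minus strand: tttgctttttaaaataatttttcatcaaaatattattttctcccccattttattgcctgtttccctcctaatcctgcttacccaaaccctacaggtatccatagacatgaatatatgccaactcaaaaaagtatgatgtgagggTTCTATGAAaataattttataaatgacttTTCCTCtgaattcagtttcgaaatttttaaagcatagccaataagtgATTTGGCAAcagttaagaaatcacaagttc
Tlr9, chr9:106222348-106222597, plus strand: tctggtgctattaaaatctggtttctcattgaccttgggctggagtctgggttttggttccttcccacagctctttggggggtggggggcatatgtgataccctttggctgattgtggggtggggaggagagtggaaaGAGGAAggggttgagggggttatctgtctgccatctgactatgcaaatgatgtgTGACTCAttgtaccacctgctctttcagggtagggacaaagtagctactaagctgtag
In the Tlr2 stretch the capitals are 2 overlapping kappa-B matches, 173 to 163 bases before the RefSeq start. A kappa-B match also lay 211 to 202 bases before the Tlr3 start, in sequence that is exonic in GENCODE and is not shown. Kappa-B matches occurred in 2 of the 10 windows and in 3.9% of 32851 windows of the same length before all RefSeq starts. The capitals of Tlr6 are 2 overlapping interferon-response matches followed by a C/EBP match, in front of a start that lies within an intron of the longer Tlr6 transcript. The interferon-response motif was in 1 of the 10 windows, against 2.98% of all, and the C/EBP motif in 3, against 2.11%. GAGGAA was in 4 of 10, among them Tlr1 at 23 to 18 bases before the start, against 23.3% of all. The STAT motif was in 2, against 7.02%, and the AP-1 motif in 1, Tlr9, against 4.46%. A match is a run of letters and does not show that a factor binds.

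Tlr2 had the highest level of the receptor transcripts per length. To compare genes, log2 of the exonic length in kb was subtracted from the group mean rlog. On that scale Tlr2 stood at 10.93 in cKO after LPS, 9.71 in cKO at 0 h, 11.13 in WT after LPS and 10.27 in WT at 0 h. Tlr13 (7.75, 8.31, 7.65 and 8.22 in the same order of groups) and Tlr7 (7.92, 7.19, 8.43 and 7.28) followed by the mean over all 8 libraries. In WT after LPS, Tlr1 stood second at 8.88, and Tlr6 at 7.68 was also above Tlr13. At 0 h Tlr3 was the lowest of those tested apart from Tlr9, at 3.56 in cKO and 3.91 in WT, and after LPS it reached 6.90 in cKO and 7.42 in WT. Tlr9 lay lowest in all 4 groups, from 1.21 to 2.23. Tlr4, the LPS receptor, lay between 5.36 and 6.02, above Tlr3 at 0 h and below it after LPS in both genotypes.

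**Figure D1:**
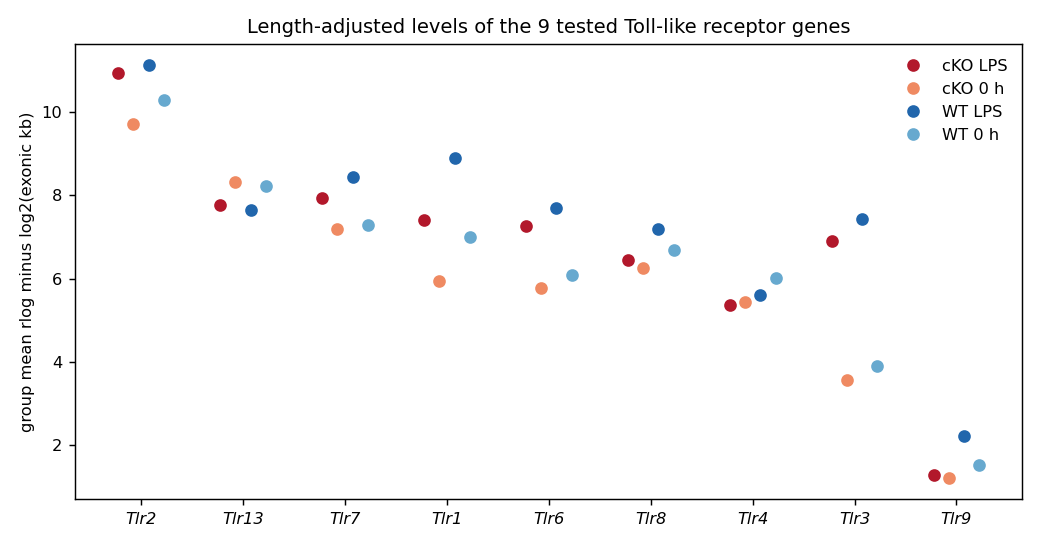
Group mean rlog minus log2 of the exonic length in kb (vertical axis) for the 9 tested receptor genes, ordered by their mean over all 8 libraries; each point is the mean of 2 libraries of a group. Tlr2 lies highest in every group (9.71 to 11.13) and Tlr9 lowest (1.21 to 2.23), while Tlr3 moves most, to 6.90 and 7.42 after LPS in cKO and WT.

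**Figure D2:**
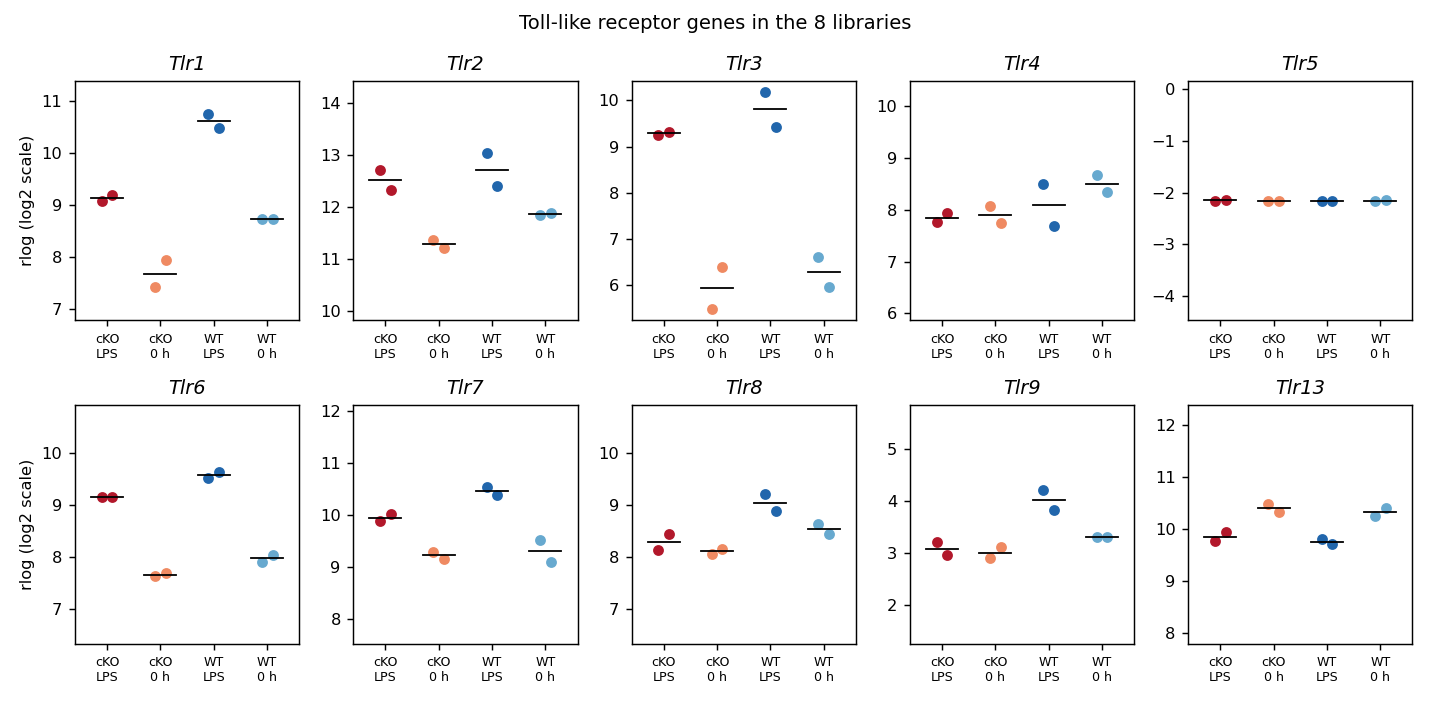
Authors' rlog (vertical axis, log2 scale, each panel at least 4.6 units high) of the 10 receptor genes in the 8 libraries; points are libraries and bars are means of the 2 libraries of a group. Tlr1, Tlr2, Tlr3, Tlr6 and Tlr7 are higher after LPS than at 0 h in both genotypes, Tlr1 is lower in cKO than in WT at both times, and Tlr5 stays between -2.17 and -2.14.

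LPS raised 5 of the 9 tested receptor genes and lowered 1 in cKO macrophages, and raised 7 and lowered 1 in WT macrophages. Among all tested genes 37% were called in cKO (19.6% higher and 17.5% lower) and 42.2% in WT (22.5% higher and 19.7% lower). Both LPS libraries lay above both 0 h libraries for 5 receptors and below them for 1 in cKO, and for 7 and 1 in WT. In cKO the groups did not overlap for 72.5% of all tested genes (35.6% higher and 36.9% lower), and in WT for 71.3% (35.7% higher and 35.6% lower). Tlr1, Tlr2, Tlr3, Tlr6 and Tlr7 rose in both genotypes, Tlr13 fell in both, and Tlr8 and Tlr9 passed the test in WT and not in cKO. The median difference of the tested receptors was 0.73 in cKO and 0.85 in WT, against -0.02 and -0.01 over all tested genes.

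Tlr3, the sensor of double-stranded RNA, rose most. Its rlog was 9.26 and 9.31 in cKO after LPS, against 5.49 and 6.40 in cKO at 0 h, while WT had 10.18 and 9.42 after LPS, against 6.62 and 5.97 at 0 h. Both LPS libraries lay above both 0 h libraries in either genotype. The rise was 3.34 in cKO (SE 0.35, adjusted p = 0.000196) and 3.51 in WT (SE 0.35, adjusted p = 0.000115), which is 10.1-fold and 11.4-fold on this shrunken scale.

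The lipoprotein receptors rose as well. Tlr1 had 9.07 and 9.21 in cKO after LPS, against 7.42 and 7.94 in cKO at 0 h, while WT had 10.76 and 10.49 after LPS, against 8.74 and 8.73 at 0 h. It rose by 1.46 in cKO (SE 0.18, adjusted p = 0.000513) and by 1.89 in WT (SE 0.18, adjusted p = 0.0001). The cKO libraries after LPS lay above the WT libraries at 0 h and below the WT libraries after LPS. Its neighbour Tlr6 had 9.15 and 9.16 in cKO after LPS, against 7.64 and 7.69 in cKO at 0 h, while WT had 9.53 and 9.64 after LPS, against 7.91 and 8.05 at 0 h. The rise of Tlr6 was 1.49 in cKO (SE 0.12, adjusted p = 5.98e-05) and 1.60 in WT (SE 0.12, adjusted p = 2.99e-05), with the narrowest spread between libraries of the receptors that rose.

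Tlr2, their shared partner, had 12.71 and 12.33 in cKO after LPS, against 11.37 and 11.22 in cKO at 0 h, while WT had 13.03 and 12.40 after LPS, against 11.84 and 11.89 at 0 h. Groups did not overlap in either genotype. It rose by 1.23 in cKO (SE 0.22, adjusted p = 0.00275) and by 0.85 in WT (SE 0.22, adjusted p = 0.013). The WT call of Tlr2 ended under quantile normalization, where the difference was 0.18 (adjusted p = 0.476), with no filter on low values (adjusted p = 0.07), without WT 0 h replicate 1 (adjusted p = 0.0595) and without WT LPS replicate 1, where it was 0.54 (adjusted p = 0.0604).

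Tlr4, the receptor of LPS itself, was not called in either genotype. It had 7.75 and 7.92 in cKO after LPS, against 8.07 and 7.73 in cKO at 0 h, while WT had 8.49 and 7.69 after LPS, against 8.66 and 8.33 at 0 h. The libraries of the groups overlapped in both genotypes. The difference was -0.06 in cKO (95% interval -0.65 to 0.53, adjusted p = 0.868) and -0.41 in WT (95% interval -0.996 to 0.18, adjusted p = 0.239). Without WT LPS replicate 1 the WT difference was -0.81 (adjusted p = 0.0232), and without WT LPS replicate 2 it was -0.0059.

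Of the endosomal RNA and DNA sensors, Tlr7 rose in both genotypes. Its rlog was 9.88 and 10.01 in cKO after LPS, against 9.28 and 9.16 in cKO at 0 h, while WT had 10.54 and 10.38 after LPS, against 9.53 and 9.10 at 0 h. It rose by 0.73 in cKO (SE 0.16, adjusted p = 0.00793) and by 1.15 in WT (SE 0.16, adjusted p = 0.000658). Without cKO LPS replicate 2 the cKO call was lost (0.67, adjusted p = 0.0625).

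Tlr8, next to Tlr7 on the X chromosome, had 8.13 and 8.43 in cKO after LPS, against 8.05 and 8.15 in cKO at 0 h, while WT had 9.20 and 8.88 after LPS, against 8.64 and 8.44 at 0 h. The cKO libraries overlapped and the WT libraries did not. Its difference was 0.18 in cKO (95% interval -0.19 to 0.56, adjusted p = 0.423) and 0.50 in WT (SE 0.16, adjusted p = 0.0372). Tlr9 had 3.21 and 2.96 in cKO after LPS, against 2.90 and 3.12 in cKO at 0 h, while WT had 4.22 and 3.83 after LPS, against 3.32 and 3.32 at 0 h. It is the lowest of the tested receptors, and its groups overlapped in cKO and not in WT. The difference of Tlr9 was 0.07 in cKO (95% interval -0.41 to 0.55, adjusted p = 0.811) and 0.70 in WT (SE 0.21, adjusted p = 0.0259).

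The WT calls of Tlr8 and Tlr9 were lost under several alternatives. With no filter on low values the adjusted p was 0.106 for Tlr8 and 0.0664 for Tlr9, and in a fit of the 4 WT libraries alone it was 0.063 and 0.0501. Leaving out WT LPS replicate 1, WT 0 h replicate 1 or WT 0 h replicate 2 ended both calls, with an adjusted p of 0.183, 0.06 and 0.173 for Tlr8 and of 0.138, 0.0893 and 0.0874 for Tlr9.

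Tlr13, the sensor of bacterial ribosomal RNA, was the receptor that fell. It had 9.77 and 9.95 in cKO after LPS, against 10.48 and 10.34 in cKO at 0 h, while WT had 9.81 and 9.71 after LPS, against 10.25 and 10.41 at 0 h. The LPS libraries lay below the 0 h libraries in both genotypes. It fell by 0.55 in cKO (SE 0.13, adjusted p = 0.0099) and by 0.57 in WT (SE 0.13, adjusted p = 0.00739). The cKO call was lost without cKO LPS replicate 1 (adjusted p = 0.081) or without cKO 0 h replicate 1 (adjusted p = 0.0621).

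The authors' deposited table, whose fold changes are not on the rlog scale, called Tlr1, Tlr2, Tlr3, Tlr6 and Tlr7 higher and Tlr13 lower in both genotypes. For Tlr3 the authors' deposited table gave a log2 fold change of 3.73 in cKO and 3.93 in WT. Its adjusted p in WT was 0.179 for Tlr8 and 0.209 for Tlr9, which it did not call, and for Tlr9 the authors' deposited table gave a log2 fold change of 1.36.

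**Figure D3:**
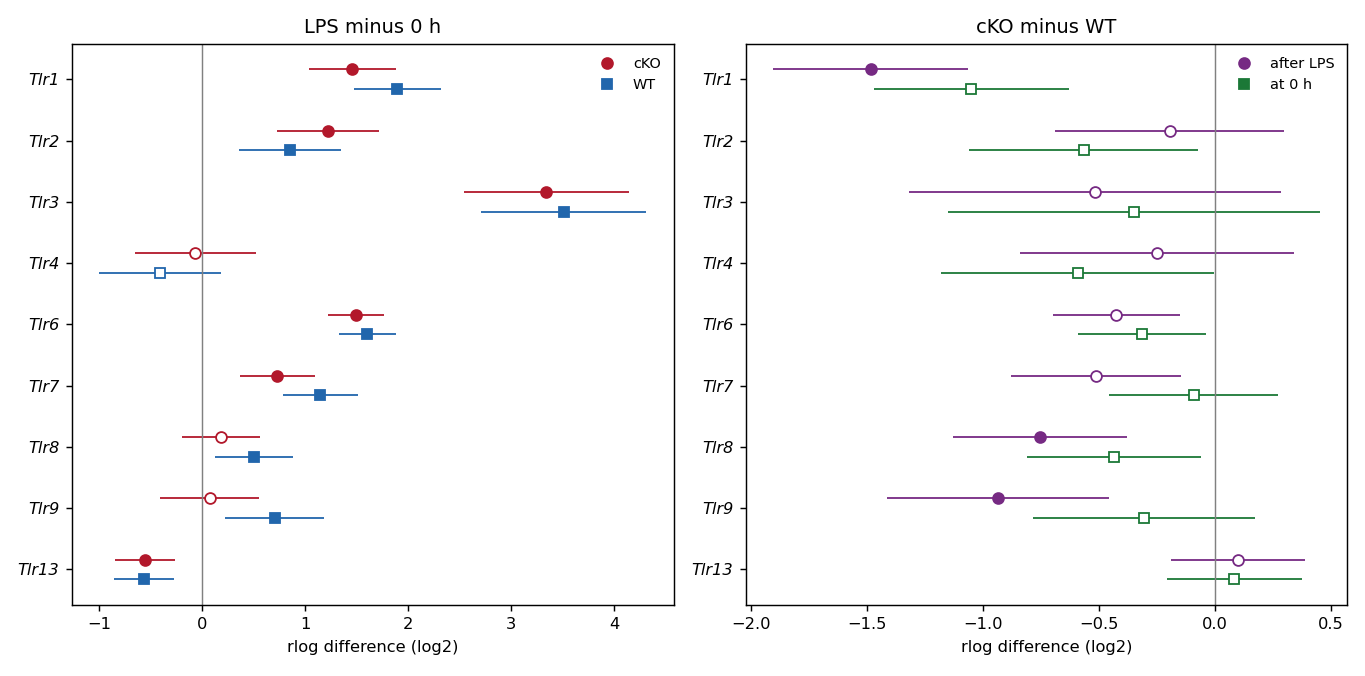
Differences in rlog (horizontal axis, log2) with 95% intervals from limma for the 9 tested receptor genes; filled symbols passed an adjusted p of 0.05 over all tested genes. On the left LPS minus 0 h in cKO (circles) and WT (squares), with Tlr3 at 3.34 and 3.51; on the right cKO minus WT after LPS (circles) and at 0 h (squares), with Tlr1 at -1.49 and -1.05 and Tlr13 at 0.10 and 0.08.

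In cKO against WT macrophages, 3 receptor genes were lower after LPS and 0 at 0 h. Among all tested genes 3.97% were called after LPS, 1.51% higher and 2.46% lower, and 0.251% at 0 h, 0.052% higher and 0.199% lower. The 3 were Tlr1, Tlr8 and Tlr9. At 0 h 5 of the 9 had an unadjusted p under 0.05 with limma, all with lower values in cKO, and so did 1256 of the 11543 tested genes (10.9%) in either direction. Of the 9 tested receptors 8 had a difference below 0 after LPS and 8 at 0 h, against 54% and 52.2% of all tested genes, and the exception was Tlr13 both times. The median difference was -0.51 after LPS and -0.35 at 0 h, against -0.03 and -0.01 over all tested genes. This lean was not particular to the receptors. Of the 8 macrophage markers 87.5% were below 0 at both times, with medians of -0.45 after LPS and -0.36 at 0 h. The comparisons at the different times share no library, but they share 1 estimate of the spread per gene. Same-numbered libraries may also share a culture, so the comparisons are not shown to be independent.

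Tlr1 had the lowest values in cKO relative to WT. Both cKO libraries after LPS (9.07 and 9.21) lay below both WT libraries after LPS (10.76 and 10.49), and both cKO libraries at 0 h (7.42 and 7.94) below both WT libraries at 0 h (8.74 and 8.73). The difference was -1.49 after LPS (SE 0.18, adjusted p = 0.0144) and -1.05 at 0 h (SE 0.18, adjusted p = 0.0825), so that it passed over all genes after LPS and did not at 0 h. The call after LPS was lost when cKO LPS replicate 1 was left out (-1.42, adjusted p = 0.0948), when cKO LPS replicate 2 was (-1.55, adjusted p = 0.139) and when WT LPS replicate 1 was (-1.35, adjusted p = 0.0688). The authors' deposited table called Tlr1 at both times, with log2 fold changes of -1.58 after LPS (adjusted p = 2.82e-09) and -1.15 at 0 h (adjusted p = 0.011), and of these 10 genes it called only Tlr1 in either comparison.

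Tlr9 after LPS (3.21 and 2.96 in cKO, against 4.22 and 3.83 in WT) differed by -0.94 (SE 0.21, adjusted p = 0.0484). Tlr8 after LPS (8.13 and 8.43 in cKO, against 9.20 and 8.88 in WT) differed by -0.76 (SE 0.16, adjusted p = 0.0442). The cKO libraries lay below the WT libraries for both genes. With no filter on low values the adjusted p was 0.129 for Tlr9 and 0.136 for Tlr8, under quantile normalization 0.054 and 0.0648, and leaving out either cKO LPS library or WT LPS replicate 1 ended both calls, with an adjusted p between 0.14 and 0.267 for Tlr9 and between 0.168 and 0.217 for Tlr8. The Tlr9 call was lost whichever of the 8 libraries was left out. At 0 h the difference was -0.31 for Tlr9 (adjusted p = 0.656) and -0.44 for Tlr8 (adjusted p = 0.393).

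The other receptors did not pass at either time. After LPS the difference was -0.52 for Tlr3 (95% interval -1.32 to 0.28), -0.51 for Tlr7 (-0.88 to -0.15, adjusted p = 0.108), -0.43 for Tlr6 (-0.70 to -0.15, adjusted p = 0.0852), -0.25 for Tlr4 (-0.84 to 0.34), -0.20 for Tlr2 (-0.69 to 0.30) and 0.10 for Tlr13 (-0.19 to 0.39). At 0 h it was -0.59 for Tlr4 (95% interval -1.18 to -0.0026), -0.57 for Tlr2 (-1.06 to -0.07), -0.35 for Tlr3 (-1.15 to 0.45), -0.32 for Tlr6 (-0.59 to -0.04), -0.09 for Tlr7 (-0.46 to 0.27) and 0.08 for Tlr13 (-0.21 to 0.37). The small difference of Tlr2 after LPS was 0.09 under quantile normalization and 0.12 without WT LPS replicate 1. Both cKO libraries lay below both WT libraries for 6 of the 9 genes after LPS and for 6 at 0 h, where 29.7% and 21.9% of all tested genes did. The groups did not overlap in either direction for 53% of all tested genes after LPS (23.3% higher) and for 41.2% at 0 h (19.3% higher).

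Averaged over both times, a contrast added after the data were seen, 4 receptor genes were lower in cKO than in WT, among 7.02% of all tested genes called, 2.88% higher and 4.14% lower. They were Tlr1 (-1.27, SE 0.13, adjusted p = 0.00414), Tlr9 (-0.62, adjusted p = 0.0432), Tlr8 (-0.60, adjusted p = 0.0231) and Tlr6 (-0.37, adjusted p = 0.0382). This contrast takes the 0 h and LPS libraries of a genotype as independent, and no block within genotype was applied to it. If same-numbered libraries share a culture, its adjusted p-values are too small, and leaving out 1 library keeps its partner. With 1 library left out at a time, the Tlr1 difference stayed between -1.40 and -1.14. Tlr6 passed in none of these runs, and Tlr8 in 2 and Tlr9 in 1 of them.

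The size of the LPS response did not pass a test of a genotype difference for any receptor. By limma, 0 of the 11543 tested genes passed this interaction test and 751 had an unadjusted p under 0.05, and of the 9 receptors 0 had one. Of the 9 receptors 6 had an interaction below 0 (66.7%), against 51.9% of all tested genes, and Tlr2, Tlr4 and Tlr13 were above 0. With 1 library left out at a time, Tlr2 lay between 0.056 and 0.69 and Tlr4 between -0.0584 and 0.74. By size the interactions were led by -0.63 for Tlr9 (95% interval -1.31 to 0.05), -0.43 for Tlr1 (-1.03 to 0.16) and -0.42 for Tlr7 (-0.94 to 0.10), each a smaller rise in cKO. Leaving out 1 library at a time moved them between -0.82 and -0.44 for Tlr9, -0.70 and -0.17 for Tlr1 and -0.63 and -0.21 for Tlr7, so their order is not fixed. The calls of Tlr8 and Tlr9 in WT alone therefore do not show that their response differed between the genotypes.

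The neighbours of the Tlr1 and Tlr6 genes were compared as a description. The nearest tested protein-coding gene above them on chromosome 5, Fam114a1, 10.0 kb from Tlr6, differed by -0.55 in cKO against WT after LPS (SE 0.20, adjusted p = 0.152) and by -0.67 at 0 h (SE 0.20, adjusted p = 0.272). Averaged over both times, as for Tlr1 and Tlr6, Fam114a1 was lower in cKO (-0.61, SE 0.14, adjusted p = 0.0386), a call lost with no filter on low values (adjusted p = 0.129) and when any 1 of 7 of the 8 libraries was left out (adjusted p up to 0.127). The nearest below, Klf3, a transcription factor gene 91.8 kb from Tlr1, differed by -0.18 after LPS (SE 0.19, adjusted p = 0.62) and by -0.04 in the average (adjusted p = 0.897). On the X chromosome Tmsb4x, 33.4 kb from Tlr8, differed by -0.72 after LPS (SE 0.20, adjusted p = 0.0859) and Prps2, 15.8 kb from Tlr7, by -0.57 (SE 0.20, adjusted p = 0.143). In the average Tmsb4x differed by -0.41 (adjusted p = 0.134) and Prps2 by -0.47 (adjusted p = 0.087). Beside Tlr9 on chromosome 9, Alas1 at 6.6 kb differed by -0.36 after LPS (adjusted p = 0.39) and Twf2 at 7.2 kb by 0.14 (adjusted p = 0.683). Ppm1m, the next tested gene beyond Twf2 and 22.9 kb from Tlr9, was higher in cKO after LPS (1.36, SE 0.23, adjusted p = 0.0219) and in the average (1.09, adjusted p = 0.00963). The next tested genes beyond the other neighbours named here, Tbc1d1, Tmem156, Tceanc, Msl3 and Poc1a, were not called after LPS or in the average. These Ppm1m calls were not followed through the alternatives.

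The genes with the most similar values over the 8 libraries were taken from 3251 tested genes whose group means span at least 1 log2 unit, for the 6 receptors that span as much. These correlations rest mainly on the 4 group means. Tlr1 was most like Rbpj (r = 0.997), Ms4a14 (r = 0.997) and Lpar1 (r = 0.991). Tlr3 was most like the interferon-inducible genes Igtp (r = 0.998) and Oasl1 (r = 0.997) and Themis2 (r = 0.997). For Tlr6 these were Rffl, Tarm1 and Cpd (r = 0.998 to 0.997), for Tlr7 Lcp1, Phf6 and Rnf2 (r = 0.998 to 0.993), for Tlr2 Mcoln2, Ccser1 and Lipe (r = 0.989 to 0.975), and for Tlr9 Pdcd1lg2, Cd53 and Rgs1 (r = 0.978 to 0.959).

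Proteins that fold, carry or assist the receptors went both ways after LPS. Of 25 accessory and trafficking genes 24 were in the table and 23 were tested, of which 8 rose and 6 fell in cKO and 9 rose and 6 fell in WT (median difference 0.15 and 0.20), which are 60.9% and 65.2% of them, against 37% and 42.2% of all tested genes. The rises were led by Slc15a3, a lysosomal transporter gene, at 2.16 in cKO and 2.12 in WT. Cd180, a receptor homologue without a TIR domain, rose by 0.87 in cKO and by 1.58 in WT, and the vesicle traffic genes Rab10 and Ap3b1 by 1.10 and 1.02 in cKO and by 1.26 and 1.34 in WT. The receptor chaperone gene Cnpy3 fell by 0.91 in cKO and by 0.99 in WT, and Cnpy4 by 1.49 in cKO and by 1.45 in WT. Unc93b1, which carries the endosomal receptors out of the endoplasmic reticulum, was not called. Its rlog was 14.13 and 14.29 in cKO after LPS, against 13.71 and 13.88 in cKO at 0 h, while WT had 14.20 and 13.90 after LPS, against 13.73 and 13.78 at 0 h.

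The LPS-binding partners of Tlr4 were named after their values were seen. Cd14, which hands LPS to Tlr4, rose by 1.55 in cKO (SE 0.27, adjusted p = 0.0026) and by 1.14 in WT (SE 0.27, adjusted p = 0.00946). Its level was lower in cKO, at a mean of 15.03 against 15.63 in WT after LPS and 13.49 against 14.49 at 0 h. The groups did not overlap at either time, as for 53% of all tested genes after LPS and 41.2% at 0 h. Cd14 was called lower in the average over both times, the contrast added after the data were seen, and not at either time alone. With 1 library left out at a time the averaged difference stayed between -0.99 and -0.61, and the call was lost in most of these runs. The WT call of Cd14 ended under quantile normalization, at 0.46 (adjusted p = 0.21), with no filter on low values (adjusted p = 0.054) and without WT LPS replicate 1 (adjusted p = 0.0527). Ly96, the gene of MD-2, differed by 0.68 in cKO (SE 0.24, adjusted p = 0.0535) and rose by 1.11 in WT (SE 0.24, adjusted p = 0.00623).

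Of the 14 genes for proteases, nucleases and other enzymes of endosomes and lysosomes, all tested, 4 rose and 1 fell in cKO and 4 rose and 2 fell in WT. These are 35.7% and 42.9% of them, near the 37% and 42.2% of all tested genes. The proprotein convertase genes Furin (2.34 in cKO and 2.60 in WT) and Pcsk7 (1.31 and 1.30) rose in both. So did Rnaset2b (2.51 and 1.92), which has the near-identical copy Rnaset2a, so its reads are uncertain. Of 17 tested adaptor and proximal signalling genes 8 rose and 2 fell in cKO (58.8%) and 8 rose and 3 fell in WT (64.7%). The main adaptor gene Myd88 rose by 1.63 in cKO and by 1.54 in WT, the kinase gene Irak2 by 1.60 in cKO and by 1.66 in WT, and the inhibitors Tnfaip3 and Socs1 by 2.71 and 2.80 in cKO and by 2.19 and 2.29 in WT.

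In cKO against WT, 0 tested genes of these 3 lists were called at 0 h, and after LPS 1 accessory gene was higher, 2 processing genes were lower and 1 signalling gene was higher. The calls after LPS are 4.35%, 14.3% and 5.88% of the lists, against 3.97% of all tested genes. Differences below 0 made up 78.3%, 57.1% and 70.6% of the lists after LPS, against 54% of all tested genes. At 0 h they made up 65.2%, 71.4% and 76.5%, against 52.2%. In the average over both times 4 accessory genes were lower and 1 higher (21.7%), 2 processing genes lower (14.3%) and 1 signalling gene higher (5.88%), against 7.02% of all. This contrast was added after the data were seen. With 1 library left out at a time these genes kept their direction in the average, but none kept its call in every run. Slc15a4, a lysosomal transporter needed for signalling from Tlr7 and Tlr9, had 8.84 and 8.81 in cKO after LPS, against 7.85 and 7.60 in WT after LPS, and differed by 1.10 (SE 0.19, adjusted p = 0.0222). Ctsl, the gene of cathepsin L, a lysosomal protease, had 11.45 and 11.23 in cKO, against 12.60 and 12.41 in WT, and differed by -1.16 (SE 0.21, adjusted p = 0.0273). Lgmn, the gene of the protease legumain, which like cathepsins cuts endosomal receptors, had 13.15 and 13.23 in cKO, against 14.01 and 13.85 in WT, and differed by -0.74 (SE 0.15, adjusted p = 0.0355). Socs1 had 9.68 and 9.47 in cKO, against 8.35 and 8.55 in WT, and differed by 1.13 (SE 0.21, adjusted p = 0.0275). The groups after LPS did not overlap for Slc15a4, Ctsl, Lgmn or Socs1, as for 53% of all tested genes. Each call was lost without any of the 4 LPS libraries, with adjusted p-values between 0.0559 and 0.225, and with no filter on low values, and under quantile normalization Ctsl was at -0.85 (adjusted p = 0.0951) and Lgmn at -0.38 (adjusted p = 0.152), both no longer called.

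**Figure D4:**
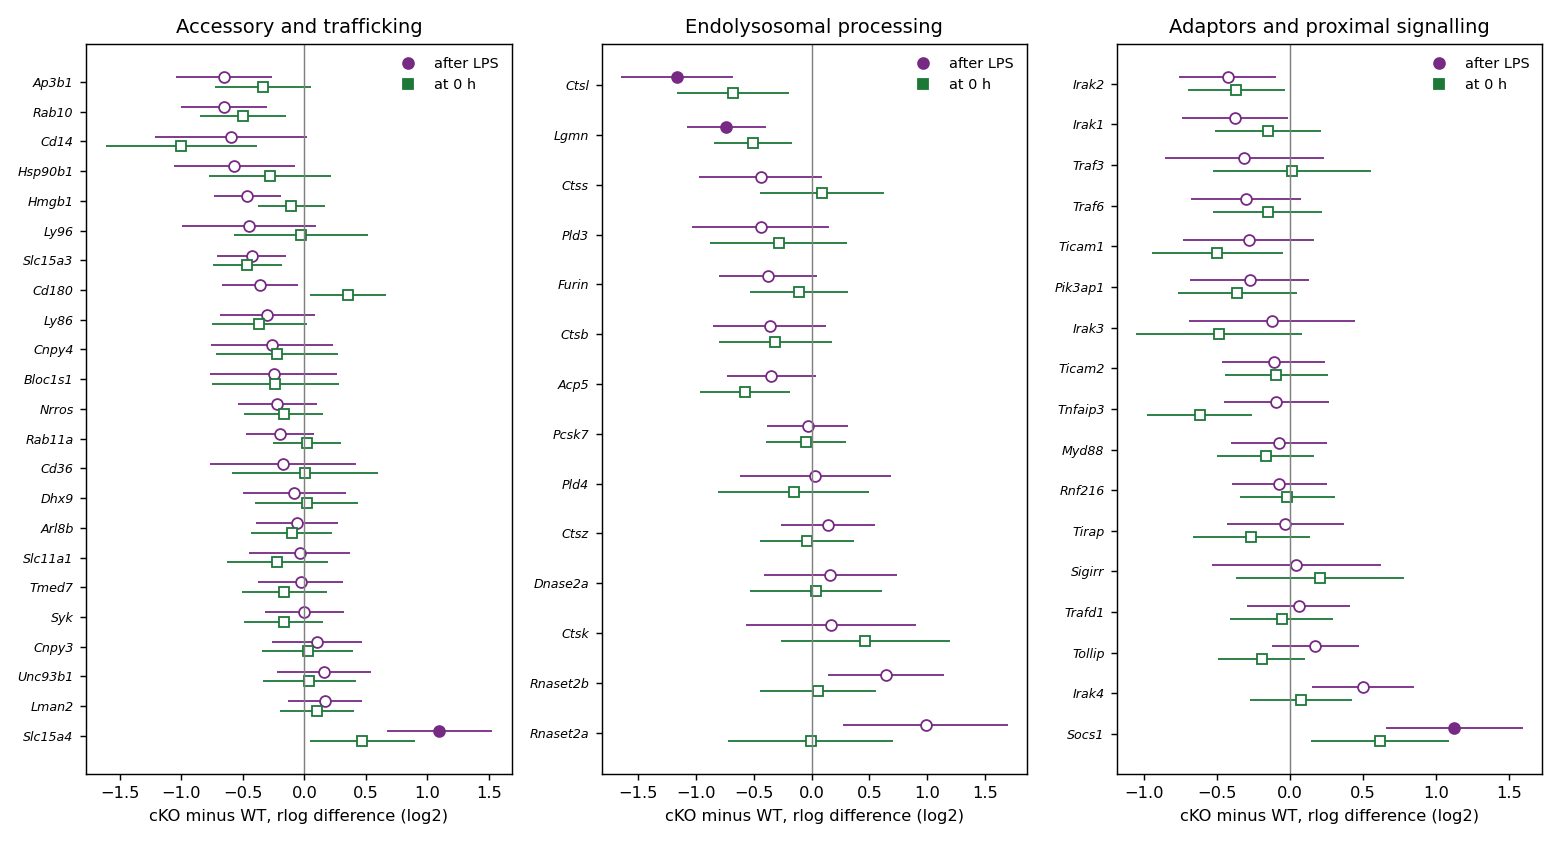
Differences in rlog between cKO and WT (horizontal axis, log2) with 95% intervals for the tested genes of 3 lists, after LPS (circles) and at 0 h (squares); filled symbols passed an adjusted p of 0.05 over all tested genes. Slc15a4 (1.10) and Socs1 (1.13) are called higher and Ctsl (-1.16) and Lgmn (-0.74) lower after LPS, and no gene of these lists is called at 0 h.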

How the data were processed

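Per the labels' protocols, libraries came from Trizol-extracted RNA enriched with oligo-dT, primed at random and amplified in 15 PCR cycles. Per the submitters' processing notes, CASAVA, HISAT2 2.1.0, featureCounts, DESeq2 and GRCm38 were used. The sources used here give neither their roles nor the annotation nor the strand setting. The authors deposited 1 table of log2 values, named as rlog output, together with a log2 fold change, a p-value and its adjusted form for each of their comparisons, per the file headers. Of 55226 genes 26727 were at 0 in every library. Across genes, which are no independent replicates, r between replicates was 0.987 to 0.992.

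The 11543 genes averaging an rlog of 3 or more were fitted with 4 group means over all 8 libraries in limma 3.58.1 (R 4.3.3; trended eBayes, 4 residual degrees of freedom, 4.4 borrowed), with Benjamini-Hochberg adjustment. The same code was tested on simulated data. Intervals are at 95%. Alternatives were 2 filters, 2 normalizations, 2 variance models, smaller fits, blocks and leaving out libraries. That these genes are described, and the gene lists and tests, were chosen with earlier results of these data known. The members, Paxip1 and the largest calls of each list are named. Positions come from GENCODE M21 and upstream sequences from RefSeq.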

Additional observations from a re-analysis of the deposited data

How the results depend on the processing

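With no filter on low values, the called receptors numbered 5 for LPS in WT, 1 for cKO against WT after LPS and 1 for the average over both times. After LPS 1 receptor, Tlr1, also remained under quantile normalization and in a fit of the LPS libraries alone. All tested genes called for cKO against WT at 0 h numbered 114 with no filter, 9 with no variance trend and 0 in a fit of the 0 h libraries alone, against 29. After LPS they numbered 208 with no filter, 235 under quantile normalization and 301 with no variance trend, against 458. With no filter the interaction called 10 genes and the average 359.

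Leaving out 1 library at a time, receptors called ranged from 5 to 8 for LPS in WT, 0 to 2 for cKO against WT after LPS and 1 to 5 for the average. All genes called ranged from 2684 to 4468 for LPS in cKO, 2 to 128 for cKO against WT at 0 h, 0 to 582 after LPS and 109 to 775 for the average. Directions turned, with no call, for LPS in cKO in Tlr4 (-0.23 to 0.11) and Tlr9 (-0.0485 to 0.20), for cKO against WT at 0 h in Tlr3 (-0.80 to 0.11) and Tlr7 (-0.31 to 0.12), after LPS in Tlr2 (-0.51 to 0.12) and Tlr4 (-0.65 to 0.15), and for the interaction in Tlr3 (-0.62 to 0.29), Tlr4 (-0.0584 to 0.74) and Tlr13 (-0.0700 to 0.10). The neighbours Klf3 at 0 h (-0.0975 to 0.30) and in the average (-0.14 to 0.061) and Tmsb4x at 0 h (-0.24 to 0.0292) turned too. Quantile normalization turned Tlr2 in cKO against WT after LPS to 0.0935 and Paxip1 for LPS in cKO to -0.24. The cause was not tested.

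The labels do not say that same-numbered libraries share an animal or culture. Their deviations correlated at r = 0.311 between times in cKO and 0.222 in WT, and at 0.2 between genotypes after LPS and -0.042 at 0 h. Across both genotype and time r was 0.193 for WT after LPS with cKO at 0 h, and 0.077 for WT at 0 h with cKO after LPS. A pairing within a genotype may exist, but the WT value is near 0.193 and does not single it out. No pairing over all groups was shown. With a replicate block within genotype the receptors called for LPS numbered 6 in cKO and 8 in WT, as without it. The block over all groups left 3 receptors called after LPS and 0 at 0 h, with 804 genes after LPS and 72 at 0 h. Depth is unknown, and 2 libraries a group limit what could be detected.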
